A study of Mus musculus with 2 samples.

Results

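Cell cycle and mitosis genes were examined in a map of Aiolos on the chromatin of mouse natural killer (NK) cells. Aiolos is a zinc finger transcription factor of the Ikaros family, encoded by Ikzf3. The members are 50 genes in 9 roles, given by symbol: cyclins, cyclin-dependent kinases (CDKs), CDK inhibitors, phosphorylation switches of the CDKs, E2F and Rb factors, replication licensing factors, mitotic kinases with the spindle checkpoint, regulators of the anaphase-promoting complex with the cell division cycle associated (CDCA) genes, and mitotic motors with a topoisomerase. A member carried a peak when the authors' peak list named its symbol, which was the case for 8 of the 50, with 9 of the 1404 peaks in all. All 50 were found in the gene table, which holds 21900 protein-coding genes.

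The assay was CUT&RUN, which sequences the DNA that micrococcal nuclease, fused to protein A and held in place by an antibody, cuts loose from chromatin. There were 2 libraries, 1 made with an antibody against Aiolos and 1 made with no primary antibody, both from splenic NK cells. The cells were grown in complete IMDM medium with interleukin-15 at 50 ng/ml until each sample had at least 500000 of them. The sources used here do not give strain, genotype, sex, age or any pooling of animals. Each group has 1 library, so no replicate error can be given and no test was made between libraries. The intervals of fold below cover the counting of tags only. Those of shares reflect only how many genes, peaks or windows a group holds.

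The cell cycle runs on cyclins that switch on CDKs, and CDK inhibitors hold those kinases in check. D-type cyclins with Cdk4 or Cdk6 phosphorylate Rb and free E2F factors, which turn on genes of DNA replication. Licensing factors load the Mcm helicase at origins before replication, and mitotic kinases, the spindle checkpoint and the anaphase-promoting complex then order the separation of the chromosomes. NK cells in interleukin-15 divide, and members of the Ikaros family are known as regulators of lymphocyte proliferation.

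Of the 50 genes, 16% had an assigned peak (95% exact Clopper-Pearson interval 7.17 to 29.1), beside 5.38% of all protein-coding genes. The 8 genes were Cdca3, Fbxo5, Kif2c, Ccnd3, Cdkn1a, Cdkn1b, Cdkn2d and Mcm7, and Kif2c was the 1 gene with 2 peaks. A promoter peak, centred no more than 1000 bp from the annotated transcription start, was found at 5 genes, 10% (3.33 to 21.8), beside 3.79% of protein-coding genes. The genes were chosen with earlier results of this peak list known, so these shares are descriptions and no test was made of them. A gene without an assigned peak may still lie beside one that the authors gave to a neighbour, as described below for Aurka and Mcm4. The weakest listed peak had a -log10 q of 1.31, and with a median of 8 tags at a summit, a weaker signal was not detectable at this depth.

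**Figure D1:**
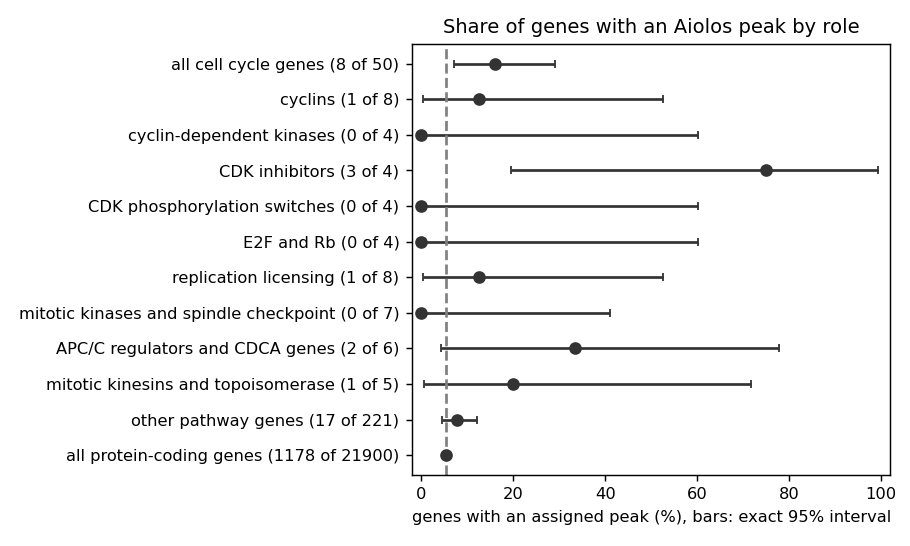
Share of genes with an assigned Aiolos peak (x axis, %) for the 50 cell cycle genes, each of their 9 roles, 221 other genes of the pathway and all protein-coding genes, with exact 95% intervals and a dashed line at 5.38%. CDK inhibitors had 3 of 4 genes with a peak, and the CDKs, the CDK phosphorylation switches, the E2F and Rb factors and the mitotic kinases had 0.

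The sequences that could be read from the RefSeq promoter table (GRCm38.p6, the assembly of mm10) are shown for 5 of the 6 promoters that a peak covered, because they show which stretch of the promoter lay under the signal. Cdkn1b is left out, since its peak covered 3 bp of the window. A promoter window runs from 250 bp before to 50 bp after a RefSeq start, and each line gives the part of it inside the peak, on the strand of the gene. Capitals mark GGGAA or its complement TTCCC, the core bound by the Ikaros family, and CCAAT or its complement ATTGG, the box bound by NF-Y. The stretches lie at chr6:124829926-124830073 on the plus strand for Cdca3, and on the minus strand at chr10:5805664-5805715 for Fbxo5, chr9:21291294-21291459 for Cdkn2d, chr5:138171217-138171470 for Mcm7 and chr2:172370663-172370820 for Aurka, whose promoter lay under a peak assigned to its neighbour Cstf1.
Cdca3: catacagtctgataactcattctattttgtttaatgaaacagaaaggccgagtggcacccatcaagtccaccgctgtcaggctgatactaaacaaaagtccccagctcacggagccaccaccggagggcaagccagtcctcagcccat
Fbxo5: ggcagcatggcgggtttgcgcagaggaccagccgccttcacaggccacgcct
Cdkn2d: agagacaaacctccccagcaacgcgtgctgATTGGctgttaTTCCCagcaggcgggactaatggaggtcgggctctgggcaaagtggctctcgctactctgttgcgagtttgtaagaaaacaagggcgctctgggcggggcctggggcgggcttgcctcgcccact
Mcm7: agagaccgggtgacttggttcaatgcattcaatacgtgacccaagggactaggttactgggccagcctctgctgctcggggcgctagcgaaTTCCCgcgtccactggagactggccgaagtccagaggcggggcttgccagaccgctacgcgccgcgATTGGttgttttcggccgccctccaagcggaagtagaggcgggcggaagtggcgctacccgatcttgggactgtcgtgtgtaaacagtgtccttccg
Aurka: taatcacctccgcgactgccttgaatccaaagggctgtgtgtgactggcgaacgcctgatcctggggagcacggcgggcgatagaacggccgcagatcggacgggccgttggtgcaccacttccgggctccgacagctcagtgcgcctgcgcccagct
The stretches were 148 bp long for Cdca3, 52 bp for Fbxo5, 166 bp for Cdkn2d, 254 bp for Mcm7 and 158 bp for Aurka. Cdkn2d and Mcm7 each held 1 Ikaros core and 1 CCAAT box, and the other stretches held neither. The summit of the peak lay inside the printed stretch for Aurka and outside it for the other genes.

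The strongest of the 9 peaks were assigned to mitotic regulators. Cdca3, which encodes an F-box-like protein (Tome-1) linked to the destruction of the mitosis inhibitor Wee1, stood at 23.3-fold (exact 95% Poisson interval of the counts 15.8 to 33.4, 28 tags at the summit), the second highest of all 1404 peaks. Fold is the authors' value for each peak, the pileup of tags over the local background at the summit. Fbxo5, which encodes Emi1, an inhibitor of the anaphase-promoting complex, had 14.3-fold (8.56 to 22.8, 16 tags) and rank 19. The counting intervals of both genes overlapped, so their order was not resolved at this depth. Cdca5 (sororin, which protects cohesin), Cdca8 (borealin) and Birc5 (survivin), both of the chromosomal passenger complex, and Cdc20, the activator of the anaphase-promoting complex, had no assigned peak.

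The broad Cdca3 peak also covered the near boundary of the next gene, Usp5, which encodes a ubiquitin-specific protease. The gene table gives no strand; as background, Usp5 and Cdca3 are known to be transcribed away from each other, so that this boundary is the start of Usp5. It ran over 927 bp on chromosome 6 from 124829147 to 124830073 and overlapped 338 bp of Usp5, whose gene interval reaches to 124829484, while the Cdca3 interval begins at 124829530. The summit lay 173 bp inside that boundary of Usp5, 236 bp upstream of the start of the Cdca3 transcript chosen by the authors and 865 bp upstream of the RefSeq start of Cdca3. The signal cannot be told apart between both genes from these positions. The Fbxo5 peak, on chromosome 10 from 5805664 to 5805942, did not reach the start of its gene: its summit lay 235 bp upstream of the annotated start and 370 bp upstream of the RefSeq start, with no other gene of the table within 1000 bp of the summit.

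Among the mitotic motors, Kif2c, a kinesin that depolymerises microtubules at kinetochores (MCAK), had 2 peaks, both in distal intergenic sequence of chromosome 4. The stronger, from 117190090 to 117190556, reached 12.6-fold (7.30 to 20.7, 14 tags) with its summit 7.71 kb upstream of the annotated start. The other, from 117189440 to 117189810, reached 7.24-fold (3.58 to 13.5, 8 tags) at 6.88 kb upstream. These peaks flanked Gm25099, annotated as a small nuclear RNA gene from 117189942 to 117190057, at gaps of 132 and 33 bp, and the table placed no other gene within 1000 bp of either summit. From the RefSeq start of Kif2c the summits were 10.8 and 11.6 kb away, so the assignment rests on the nearest annotated start. Kif11, which pushes the spindle poles apart, Kif20a and Kif23, kinesins of cytokinesis, and Top2a, the topoisomerase that untangles chromosomes, had no assigned peak.

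The mitotic kinases Plk1, Aurka and Aurkb and the spindle checkpoint genes Bub1, Bub1b, Mad2l1 and Ttk also had none (0 of 7, upper exact bound 41.0%). Aurka, the kinase of spindle poles, nevertheless had a peak upstream of its RefSeq start, with the nearest base 93 bp away. That peak, on chromosome 2 from 172370663 to 172370873, was assigned to Cstf1, which encodes an mRNA cleavage factor, and had 5.21-fold (2.58 to 9.70, 8 tags). Its summit lay 36 bp downstream of the annotated start of Cstf1 and 147 bp upstream of the RefSeq start of Aurka.

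CDK inhibitors were the role with most genes with a peak, 3 of 4 (75%, 19.4 to 99.4), beside 5.38% of all protein-coding genes. This is the highest share of 9 small roles, in a list chosen with earlier results known, so it is a description only. All 3 peaks were of ordinary strength. The 4 other CDK inhibitors, listed with the pathway genes below, had 0 with a peak. Cdkn1a (p21), a target of p53, had 6.60-fold (3.27 to 12.3, 8 tags) on chromosome 17 from 29095294 to 29095514, in intron 1 of 2 of one of its transcripts. Its summit lay 1.64 kb downstream of the annotated start, and 1.65 and 4.44 kb downstream of the RefSeq starts. Cdkn1b (p27), which holds resting lymphocytes out of the cycle, and Cdkn2d (p19-INK4d), an inhibitor of Cdk4 and Cdk6, had promoter peaks with the same 6.31-fold (3.23 to 11.4, 9 tags each).

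Both of these promoter peaks overlapped the annotated start, but on different sides. The Cdkn1b peak, on chromosome 6 from 134920448 to 134920656, had its summit 85 bp downstream of the annotated start and 197 bp downstream of the RefSeq start. The Cdkn2d peak, on chromosome 9 from 21291294 to 21291626, had its summit 167 bp upstream of the annotated start and 266 bp upstream of the RefSeq start. In the Cdkn2d stretch printed above, the CCAAT box lay 48 bp and the Ikaros core 59 bp from the summit. Cdkn2c (p18-INK4c) had no assigned peak.

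Of the cyclins, 1 of 8 had a peak (12.5%, 0.316 to 52.7). Ccnd3 encodes cyclin D3, the D-type cyclin known for its part in the expansion of lymphocytes. It had 9.47-fold (5.12 to 16.3, 11 tags) on chromosome 17 from 47564497 to 47564736, in intron 1 of 5 of a long transcript of its own. The summit lay 28.8 kb upstream of the annotated start and 59.5 kb downstream of the other RefSeq start of the gene, so the peak is inside the gene and at neither start. The other D-type cyclins Ccnd1 and Ccnd2, the E-type cyclins Ccne1 and Ccne2 of the entry into replication, and Ccna2, Ccnb1 and Ccnb2 of later phases had no assigned peak.

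The partners and upstream switches of the cyclins had none. This held for Cdk1, Cdk2, Cdk4 and Cdk6, for the phosphatases Cdc25a, Cdc25b and Cdc25c and the opposing kinase Wee1, and for E2f1, E2f2, E2f3 and Rb1. Each of these roles has 4 genes, and 0 of 4 leaves an upper exact bound of 60.2%, so groups this small do not set these roles apart from all protein-coding genes.

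Replication licensing had 1 of 8 genes with an assigned peak (12.5%, 0.316 to 52.7). Mcm7, a subunit of the helicase that opens origins, had the weakest of the 9 peaks, 5.60-fold (2.77 to 10.4, 8 tags), on chromosome 5 from 138171063 to 138171470. Its summit lay 152 bp downstream of the annotated start, which is also the second RefSeq start of the gene, and 769 bp downstream of the other, which faces Ap4m1, an adaptor complex gene whose boundary lay 907 bp from the summit. Mcm2, Mcm3, Mcm4, Mcm5 and Mcm6 and the loading factors Cdc6 and Cdt1 had none assigned.

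Mcm4, another subunit of the helicase, also lay beside a peak assigned to a neighbour. A peak on chromosome 16 from 15637485 to 15637805 with 8.43-fold (4.31 to 15.3, 9 tags) began 85 bp outside the Mcm4 interval, on the side of Prkdc, the DNA-dependent protein kinase gene to which it was assigned. As background, Mcm4 and Prkdc are known to start from a shared promoter and run in opposite directions. The summit was 282 bp from this boundary of Mcm4 and 184 bp upstream of the annotated start of Prkdc. When any peak within 1000 bp of either end of a gene was counted, whatever its assignment, 7 of the 50 genes had one, 14% (5.82 to 26.7), beside 4.60% of protein-coding genes. These were Cdca3, Fbxo5, Cdkn1b, Cdkn2d and Mcm7 with their own peaks, and Aurka and Mcm4. Another protein-coding gene lay within 1000 bp of the summit at 2 of the 5 assigned promoter peaks, Cdca3 and Mcm7, and at 29.0% of all 910 promoter peaks.

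**Figure D2:**
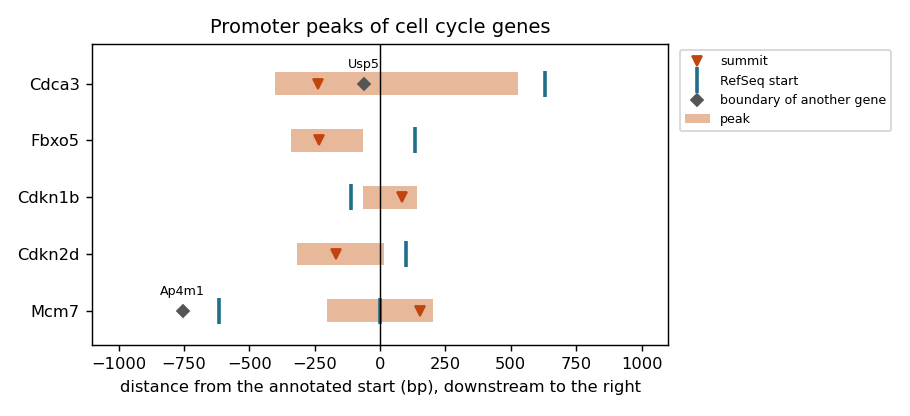
The 5 promoter peaks assigned to cell cycle genes (bars) with their summits (triangles), by distance in bp from the start of the annotated transcript, with RefSeq starts (ticks) and the nearest boundary of another protein-coding gene (diamonds). Summits of Cdca3, Fbxo5 and Cdkn2d lie upstream of the annotated start, and those of Cdkn1b and Mcm7 lie downstream.

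In strength, the 9 peaks had a median fold of 7.24 and a range of 5.60 to 23.3, against a median of 6.44 over all 1404 peaks. Of the 9, 6 lay above the median of the list, beside 48.9% of all peaks. Among the 50 strongest of all 1404 peaks were 3 of the 9, those of Cdca3 and Fbxo5 and the stronger of Kif2c. Of these, the Cdca3 summit lay inside Usp5 and the Kif2c peak was distal intergenic. The members were chosen with earlier results of this peak list known, so these values are descriptions. The 5 promoter peaks had a median of 6.31-fold, against 6.60-fold over all promoter peaks, and the 4 others a median of 8.36-fold, against 5.90-fold over all other peaks. Values of the promoter peaks fell in separate ranges: Cdca3 and Fbxo5 were at 14.3-fold or more, and Cdkn1b, Cdkn2d and Mcm7 at 6.31-fold or less. The counting interval of Cdca3 did not overlap those of the 3 weaker promoter peaks, while that of Fbxo5 did. Promoter peaks made up 55.6% of the 9 (21.2 to 86.3), against 64.8% of all peaks.

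**Figure D3:**
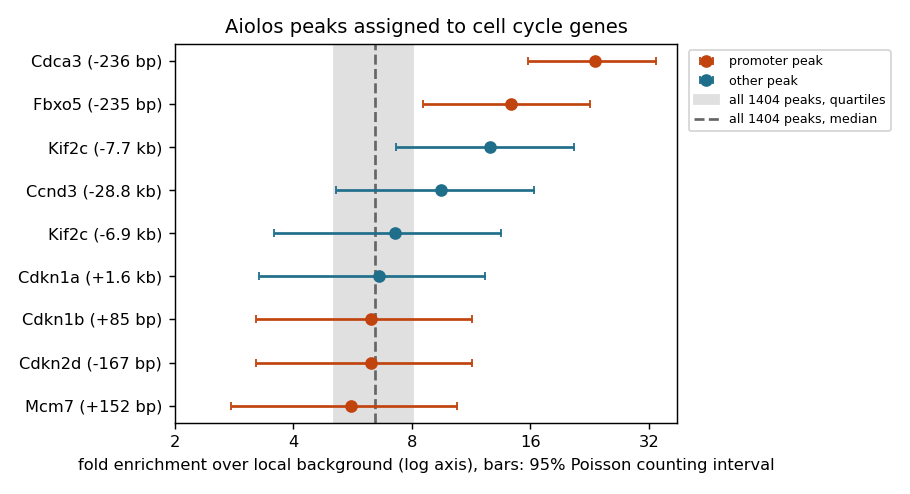
Fold enrichment (log axis) of the 9 peaks assigned to cell cycle genes with exact 95% Poisson counting intervals, labelled with the distance of the summit from the annotated start. The grey band spans the quartiles of all 1404 peaks and the dashed line their median of 6.44. The peaks of Cdca3 and Fbxo5 lie above the band with their whole intervals.

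The other genes of the pathway were taken from 9 lists with 221 genes of the gene table. Of these, 17 had an assigned peak (7.69%, exact interval 4.54 to 12), and 14 a promoter peak (6.33%, 3.51 to 10.4), beside 5.38% and 3.79% of all protein-coding genes. Their 18 peaks had a median fold of 6.34 and reached 11.0. Of these, 0 were among the 50 strongest of all 1404 peaks, a part so small that 0 of 18 does not set them apart. Ubiquitin ligases of the anaphase-promoting complex and the SCF had 5 of 23 genes with a peak: Anapc15 at 8.75-fold (5.37 to 13.6), Rbx1, the RING subunit of the SCF, at 6.31-fold, Anapc16 and the ubiquitin-conjugating enzyme Ube2c at 5.90-fold each, and Anapc5, a subunit of the complex. The other cyclins and CDKs had 3 of 27, led by Cdk19, a kinase of the Mediator complex, with the strongest peak of these lists at 11.0-fold (6.75 to 17.0, 18 tags) and its summit 266 bp upstream of the start.

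Kinetochore and centromere genes had 3 of 38, led by Spc24, a subunit of the Ndc80 complex, at 8.83-fold (5.0 to 14.6). DNA damage checkpoint genes had 2 of 19, Chek1, the kinase that halts the cycle on stalled replication, at 8.43-fold (4.31 to 15.3) and Gadd45b with a stronger peak of 7.33-fold. Origin recognition and replisome genes had 2 of 39, Gins2, a subunit of the replicative helicase, at 7.59-fold and Pcna, the sliding clamp of DNA polymerases, at 7.24-fold. Cohesin, condensin and separase genes had 1 of 22, Ncapd3 of condensin at 6.38-fold, and E2F, pocket protein and MuvB genes had 1 of 18, Rbl2 (p130), a relative of Rb, at 6.75-fold and 3.62 kb downstream of its start. The other CDK inhibitors (4 genes) and the other kinesin, spindle and cytokinesis genes (31 genes) had 0 with a peak, with upper exact bounds of 60.2% and 11.2%.

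**Figure D4:**
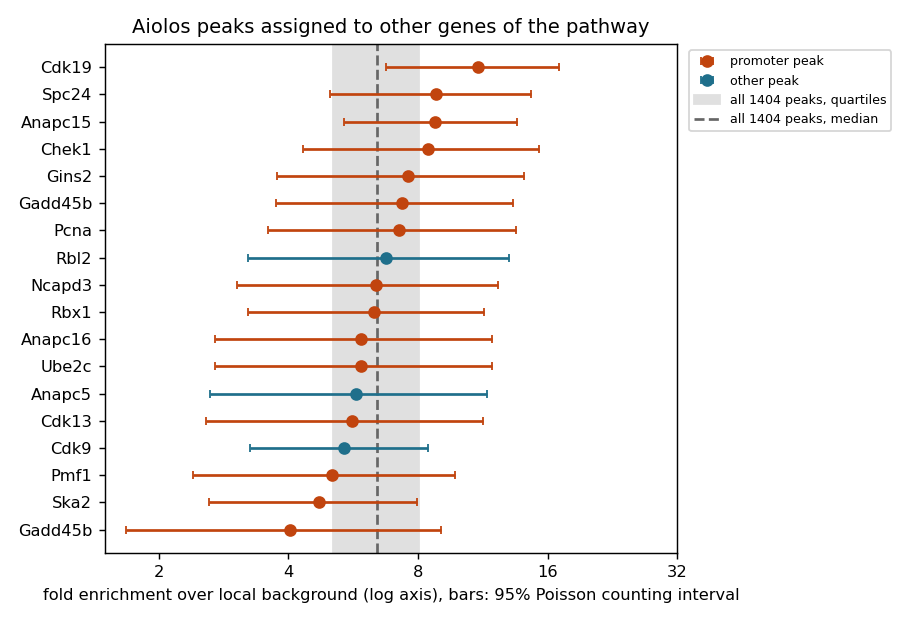
Fold enrichment (log axis) of the 18 peaks assigned to the other genes of the pathway with exact 95% Poisson counting intervals, in order of fold. The grey band spans the quartiles of all 1404 peaks and the dashed line their median. Cdk19 leads at 11.0-fold, and Gadd45b appears with both of its peaks.

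Motif letters were counted in the promoter windows that RefSeq gives for 40 of the 50 genes, 46 windows in all, and in 21263 windows of protein-coding genes, on both strands. Letters known from cell cycle promoters were in larger shares of the members' windows. CCAAT was in 67.4% of their windows (exact interval 52.0 to 80.5) and in 38.2% of all windows. The cell cycle genes homology region (CHR), searched as TTTGAA or TTCGAA, was in 45.7% (30.9 to 61.0) and in 17.6% of all, and E2F letters, searched as TTTCCCGC, TTTGGCGC or TTTCGCGC, were in 23.9% (12.6 to 38.8) and in 2.41% of all. These are shares of sequence in a chosen list, with no test.

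The core of the Ikaros family did not follow this order. GGGAA was in 56.5% of the members' windows (41.1 to 71.1), in 63.0% of all windows and in 64.6% of the 757 protein-coding windows that any peak overlapped. From 100 bp before to 50 bp after the start the order turned, with 52.2% of the members' windows (36.9 to 67.1) and 38.1% of all. Both intervals hold the share over all windows, so neither order is resolved with 46 windows. TGANTCA, the AP-1 site, was in 0 of 46 windows (upper exact bound 7.71%) and in 6.99% of all. The GC box GGGCGG was in 76.1% of the members' windows (61.2 to 87.4) and in 46.2% of all. It was in 69.0% of the 757 windows that any peak overlapped, which lies inside the members' interval. GGAA, the core of ETS factors, which every GGGAA contains, was in 93.5% of the members' windows and 95.7% of all. TTCCC is also part of the first E2F string, so those counts share letters. A peak overlapped 6 of the 46 windows by at least 1 bp, those of Cdca3, Fbxo5, Cdkn1b, Cdkn2d, Mcm7 and Aurka. Counted over the whole window, all 6 held CCAAT, 4 held GGGAA, 3 held a CHR string and 0 held an E2F string. The peaks covered only 3 to 254 bp of these windows. All 3 CHR strings, and every CCAAT of Cdca3, Fbxo5 and Aurka, lay outside the peak. Only in Cdkn2d and Mcm7 did CCAAT or GGGAA lie inside it. Of all 757 protein-coding windows that a peak overlapped by at least 1 bp, 52.8% held CCAAT, 15.2% a CHR string and 6.61% an E2F string, also anywhere in the window.

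**Figure D5:**
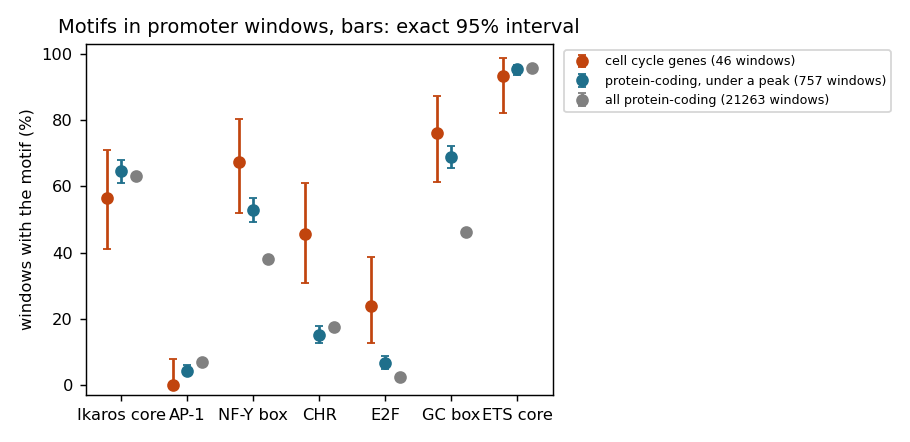
Share of promoter windows (y axis, %) that hold each motif on either strand, with exact 95% intervals, for the cell cycle genes, for protein-coding windows overlapped by a peak and for all protein-coding windows. NF-Y box, CHR and E2F letters are more frequent in the cell cycle genes than in all windows. For the Ikaros core, the interval of the cell cycle genes holds the share of all windows, so no difference is resolved.

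The cell type label could not be checked by expression, which this assay does not measure. Of 8 marker genes for each cell type, those of NK cells (Ncr1, Klrb1c, Eomes, Tbx21, Itga2, Klrk1, Il2rb and Prf1) had 2 with a peak, Il2rb at 7.33-fold and 15.0 kb upstream and Klrb1c at 4.78-fold and 9.90 kb upstream. T cell markers (Cd3e, Cd3d, Cd3g, Cd4, Cd8a, Cd8b1, Cd5 and Cd28) had 1, Cd5 at 5.90-fold and 12 kb downstream. Myeloid markers (Lyz2, Csf1r, Cd68, Itgam, Cd14, Adgre1, S100a8 and S100a9) had 0 (upper exact bound 36.9%). Beside 5.38% of all protein-coding genes, counts this small do not set the cell types apart: the exact intervals were 3.19 to 65.1% for NK and 0.316 to 52.7% for T cell markers.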

How the data were processed

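CUT&RUN data of NK cells came as 1 peak list, called from the library with Aiolos antibody; it is neither pooled nor replicated. The submitters' processing notes name mm10 as the build and list SAMtools, Picard, Bowtie2 and MACS2 without saying what each did. How duplicates were treated, which q cutoff applied and whether the library without primary antibody served as control is not given in the sources used here. Per the file headers, every peak has a signal value from the authors, taken here as the fold (ratio) of pileup plus 1 to local background plus 1, and the -log10 of its p-value and q-value. The deposited score is the -log10 q times 10, without decimals. The deposited annotation names 1 gene and transcript per peak.

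From fold and p, a whole number of tags was solved for every peak, which returned the -log10 p to within 1.75e-05; the method was tested on simulated data. Fold intervals are exact Poisson intervals of that number with the background held fixed, and duplicates of 1 molecule would make them too narrow. Shares have exact Clopper-Pearson intervals at 95%. Scripts used Python 3.11.15 with scipy 1.17.1 and pandas 2.3.3.

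Genes were matched by identifier to the RefSeq gene table (GRCm38.p6), in which 2 of 223 listed pathway symbols were not found. The members, role groups and lists were chosen with earlier results of these data known. The text names every member, and of the other pathway genes up to 12 with the highest fold; Anapc5, also named, fell outside that rule and was chosen after its value was seen. No set test was made. The alternatives were only peaks with a -log10 q or a fold on the upper side of the median, a distance limit, other promoter definitions, assignment by gene ends, the strongest peak per gene and a shorter motif window. The result of 1 further marker list is not reported here.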

Additional observations from a re-analysis of the deposited data

How the results depend on the processing

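Counts were held to within 1.5 times of their reported value, and shares and medians to the interval of theirs. By this rule, 16 of 22 alternatives were labelled as leaving the result in place and 6, all on counts, as moving it. The intervals are wide, so the rule could hardly label a share or median as moved. A promoter share of 33.3% at high -log10 q, against 55.6% as reported (21.2 to 86.3), counted as in place. The shorter motif window did so too, although it turned the order against all windows. With only the 727 peaks whose -log10 q reached the median of the list, there were 5 cell cycle genes with a peak, 2 with a promoter peak and 9 pathway genes. Keeping the 687 peaks above the median fold left 5, 2 and 8. By construction these sets hold fewer peaks: protein-coding genes with a peak fell to 2.89% and 2.73%, where the cell cycle genes stood at 10% in each. The 2 remaining promoter peaks, of 5, were those of Cdca3 and Fbxo5. Of all 910 promoter peaks, 502 remained by -log10 q and 475 by fold. The median fold of the members was 6.31 with promoter peaks alone and 11.1 in the set of high -log10 q, which filters on strength. With an edge within 10000 bp of the start, 7 members had a peak (14%), beside 4.57% of protein-coding genes. A shorter motif window gave the Ikaros core in 52.2% of the members' windows, against 38.1% of all, so the order of these shares turned with the window. In both windows the members' interval holds the share over all windows. Depth limits single peaks: 5 of the 9 rest on 10 tags or fewer, as do 999 of all 1404 peaks. No paired analysis was possible because each group has a single library.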

Other observations

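Other genes of the pathway also lay beside peaks assigned to a neighbour. Of all protein-coding genes, 4.60% had any peak within 1000 bp of a boundary, whatever its assignment. The narrower share given next was not computed for them. Of the 221, 11 (4.98%) had no peak of their own but had a peak within 1000 bp of a boundary, which the authors gave to another gene. The 4 with the highest fold, named after their values were seen, were Mau2, which loads cohesin, beside Sugp1 at 11.3-fold (95% exact Poisson counting interval 6.38 to 18.7), Ccni, an atypical cyclin, beside 2010109A12Rik at 11.0-fold (6.07 to 18.5), Kif22, a chromosome-bound kinesin, beside Maz at 10.1-fold (5.93 to 16.2), and Cdca2, a partner of protein phosphatase 1 on chromatin, beside Kctd9 at 9.46-fold (5.46 to 15.4). The Mau2 summit lay 161 bp and the Ccni summit 87 bp upstream of the RefSeq start of the gene. The Kif22 peak lay at the boundary away from its start, with the summit 15098 bp from the RefSeq start. To which gene of a pair the signal belongs cannot be told from the peak list.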
